A study of Mus musculus with 9 samples.

Results

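SLAM family receptors are immunoglobulin-superfamily proteins on the surface of blood cells, and 8 of their genes were followed through 9 bulk RNA-seq libraries of pre-cDCs, which give rise to conventional dendritic cells (cDCs). The 8 genes, Slamf1, Cd48, Cd84, Slamf6, Slamf7, Slamf8, Slamf9 and Ly9, were taken by gene symbol from the 51912 genes of the count table. The list itself uses no measured value, but it was drawn up with earlier results of these data known. Lethally irradiated mice carrying both CD45 alleles had received equal parts of BM from CD45.1 WT donors and from CD45.2 Clec9a Cre/Cre donors, mice being 6 to 12 weeks old when experiments began. Clec9a encodes DNGR-1, and the Cre knock-in at both alleles removes the receptor, so these cells are called DNGR-1 KO. The groups were pre-cDCs of WT BM (3 samples), DNGR-1 KO BM (3 samples), WT spleen (1 sample, numbered 2) and DNGR-1 KO spleen (2 samples), each sample pooled from 2 mice and given no treatment. The study names 6 mice in all, so samples of different groups shared mice, and the labels do not say which. All donor cells had developed in irradiated hosts that held both donors. The CD45 allele and the flanking DNA of its congenic strain went with genotype and cannot be told apart from it, although the 8 genes lie 27.9 to 28.9 Mb beyond the end of the chromosome 1 interval that the study scored for this difference. For WT samples the labels disagree on the CD45 allele, and CD45.1 is used here because the study's methods give it.

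Most SLAM receptors bind another copy of themselves on a neighbouring cell, whereas CD48 is a lipid-anchored protein bound by CD244 and, in mice, by CD2. The cytoplasmic tails of several members recruit the small SH2 adaptors SAP (Sh2d1a) and EAT-2 (Sh2d1b1), which couple them to Src-family kinases such as FYN, and phosphatases can take the adaptors' place. SLAMF8 and SLAMF9 have short tails without the adaptor motif and are known mainly from myeloid cells. SLAM receptors tune contacts between T cells, NK cells and antigen-presenting cells.

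Total counts ran from 17103806 to 23722298 a sample, and 3 counts, taken as the floor, corresponded to 0.127 to 0.179 CPM (counts per 1000000 counts of a library size scaled by edgeR's TMM method), which covers counting error only. Clec9a was counted 905, 1574 and 1766 times in WT BM, 1 time in each DNGR-1 KO BM sample, 2459 times in WT spleen and 0 times in both DNGR-1 KO spleen samples, so it followed the labels. The 12 DC markers were all above 3 counts in every sample. The 3 spleen samples also carried RNA of other cells: the 12 T cell markers, T cells being excluded in the sort, summed to 4.24 to 13.3 CPM in BM and to 1300, 1764 and 4891 CPM in WT spleen 2, KO spleen 1 and KO spleen 2. The 9 NK cell markers summed to 78.1 to 218 CPM in BM and 998 to 1559 CPM in spleen. In WT spleen 2, KO spleen 1 and KO spleen 2, Klrd1 was 514, 451 and 577 CPM and Klrk1 511, 382 and 485 CPM. These 2 genes made up most of the NK sum and were also above 3 counts in every BM sample. In the same order Ncr1 was 0, 15.6 and 10.7 CPM and Klrb1c 0, 14.8 and 0 CPM. The other 7 NK markers were above 3 counts in all 3 spleen samples. The 9 monocyte and macrophage markers summed to 8.19 to 21.9 CPM in BM and 177 to 578 CPM in spleen, and the 6 erythroid markers to 113 to 620 CPM and 8085 to 47131 CPM. The 7 neutrophil markers lay the other way, at 851 to 2706 CPM in BM and at most 0.971 CPM in spleen. Of 8389 genes with at least 100 counts in both other spleen samples, WT spleen 2 had 3 counts or fewer for 509 (6.07%), against 1.92% and 1.82% for the same measure in KO spleen 1 and KO spleen 2.

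All 8 genes lie on chromosome 1 of GRCm38. In order along the chromosome they are Ly9 (171588624 to 171607410, minus strand), Slamf7 (171632403 to 171653035, minus), Cd48 (171682009 to 171705258, plus), Slamf1 (171767127 to 171801184, plus), Cd84 (171839697 to 171890718, plus), Slamf6 (171917515 to 171953170, plus), Slamf9 (172475358 to 172478575, plus) and Slamf8 (172581758 to 172590568, minus). The body of Ly9 overlaps Cd244a on the opposite strand, where up to 4203 counts were assigned, and the sources used here do not state whether counting used the strand. The other overlapping genes held few counts: at most 108 for Gm37787, antisense to Slamf7, 24 for Gm37065, antisense to Slamf6, and 222 for Gm37010 on the strand of Cd48.

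The promoters of 7 of the 8 genes were matched by symbol in RefSeq (GRCm38.p6), Ly9 having no entry. The 250 bases upstream of each start were searched on both strands for 4 motifs read by factors known from myeloid cells: the PU.1-type letters GAGGAAGT, the ETS-IRF composite of GGAA and GAAA with any 2 bases between them, the interferon-stimulated response element of GAAA and GAAA with any 2 bases between them, and the AP-1 letters TGANTCA. Over 32851 promoters of the same length these letters occurred in 2.44%, 2.30%, 2.98% and 6.75%. A match was present in 4 of the 7 windows, those of Slamf7, Slamf8, Slamf9 and Cd84. The share of all promoters with any of the 4 motifs was not computed, so 4 of 7 has no share to be set against. Slamf7, Slamf8 and Slamf9 were higher in spleen, and Cd84 was the member most unlike in the 2 genotypes there. A link between matches and levels was not tested. The 4 windows are shown because they hold a match. They are written 5′ to 3′ on the gene's own strand up to the base before the start site, with the match in capitals. The matches are AP-1 in Slamf7 (chr1:171649000-171649249, minus), the response element read on the opposite strand in Slamf8 (chr1:172590569-172590818, minus), the PU.1-type letters in Slamf9 (chr1:172475110-172475359, plus) and AP-1 in Cd84 (chr1:171839447-171839696, plus).
Slamf7: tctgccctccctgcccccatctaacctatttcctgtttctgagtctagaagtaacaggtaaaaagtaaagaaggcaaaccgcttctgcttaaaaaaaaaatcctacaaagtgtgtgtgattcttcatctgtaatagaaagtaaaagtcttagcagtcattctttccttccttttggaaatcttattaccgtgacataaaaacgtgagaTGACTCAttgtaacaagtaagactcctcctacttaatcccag
Slamf8: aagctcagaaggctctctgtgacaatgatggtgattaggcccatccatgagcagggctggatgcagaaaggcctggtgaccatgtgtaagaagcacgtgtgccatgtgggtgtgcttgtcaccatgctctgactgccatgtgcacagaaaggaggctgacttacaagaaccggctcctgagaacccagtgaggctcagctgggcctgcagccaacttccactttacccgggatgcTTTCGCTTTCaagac
Slamf9: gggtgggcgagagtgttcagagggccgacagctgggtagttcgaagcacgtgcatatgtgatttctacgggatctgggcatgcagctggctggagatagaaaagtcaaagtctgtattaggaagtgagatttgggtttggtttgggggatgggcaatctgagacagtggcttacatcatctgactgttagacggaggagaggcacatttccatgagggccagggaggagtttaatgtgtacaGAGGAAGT
Cd84: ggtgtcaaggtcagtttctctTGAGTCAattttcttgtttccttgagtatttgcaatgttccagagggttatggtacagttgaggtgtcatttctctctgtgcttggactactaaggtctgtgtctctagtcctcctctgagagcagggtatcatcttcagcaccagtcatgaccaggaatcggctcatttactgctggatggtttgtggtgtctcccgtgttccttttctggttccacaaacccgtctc
The first base of the match stood at -42 in Slamf7, -15 in Slamf8, -8 in Slamf9 and -229 in Cd84, counting back from -1 at the last base shown. Slamf6, also higher in spleen, had no match, and Cd48 and Slamf1 had none either. The RefSeq start of Slamf7 lies inside the longer GENCODE gene body given above.

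Levels of different genes were compared as CPM per kb of exon. Cd48 was the most abundant member in every group, with 478 ± 103 CPM per kb (SD, n = 3) in WT BM, 701 ± 208 (SD, n = 3) in DNGR-1 KO BM, 750 in WT spleen and 398 ± 38.6 (SD, n = 2) in DNGR-1 KO spleen. It supplied 88.0% to 94.0% of the family's summed level per kb in the 6 BM samples, and 80.0%, 70.5% and 71.6% in WT spleen 2, KO spleen 1 and KO spleen 2. In WT BM, Ly9 (22.7 ± 5.35 CPM per kb), Slamf7 (13.3 ± 5.0) and Slamf8 (5.96 ± 1.26) followed, each with its range apart from the next (SD, n = 3). Cd84 (1.84 ± 0.15) and Slamf9 (1.71 ± 0.41) overlapped, Slamf6 was at 0.85 ± 0.31, and Slamf1 was last at 0.053 ± 0.042 (SD, n = 3). The order in DNGR-1 KO BM was the same except that Slamf9 and Cd84, whose ranges overlapped, changed places, and Slamf7 overlapped Slamf8. In DNGR-1 KO spleen Ly9, Slamf7 and Slamf8 formed 1 overlapping run behind Cd48, and Cd84, Slamf9 and Slamf6 another, with Slamf1 last. With 1 WT spleen sample no spread was available, and there the order ran Cd48, Slamf7, Ly9, Slamf9, Slamf8, Slamf6, Slamf1 and Cd84. With the longest transcript as the length, 4 of 8 members kept their rank in DNGR-1 KO BM and 4 of 8 in DNGR-1 KO spleen. In WT BM the order stayed, but Slamf7 then overlapped Slamf8, Cd84 and Slamf9 were apart, and Slamf9 overlapped Slamf6.

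**Figure D1:**
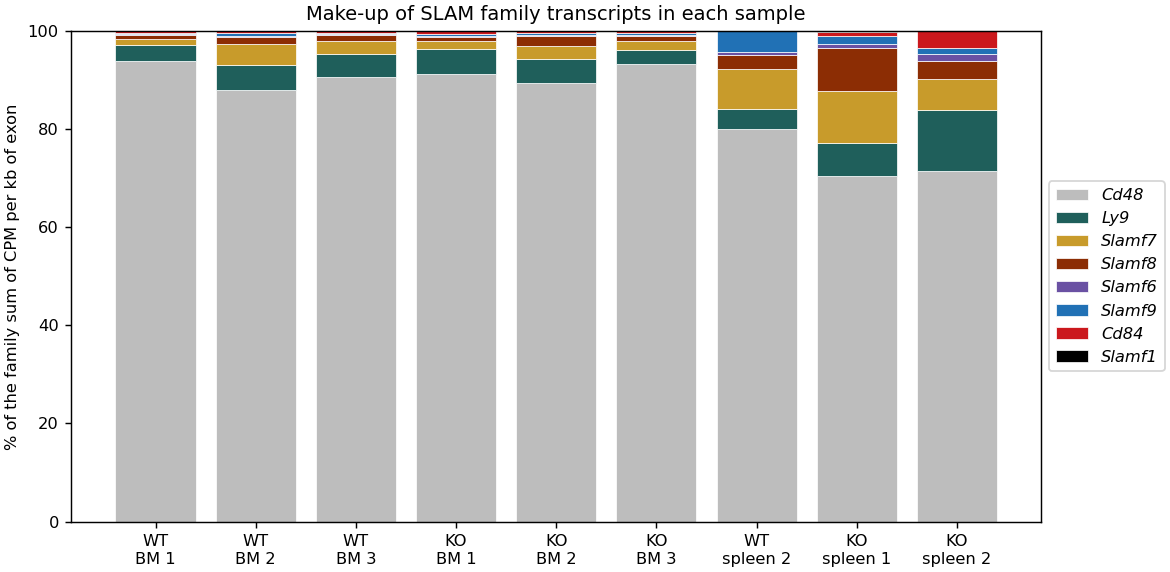
Stacked bars give the share of each of the 8 SLAM family genes in the summed CPM per kb of exon (y axis, percent) for each of the 9 samples (x axis). The Cd48 segment spans 88.0% to 94.0% in BM and 70.5% to 80.0% in spleen.

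The first comparison asked how pre-cDCs of spleen differed from those of BM, over 3 and 6 samples with genotype as a covariate. Slamf6, Slamf7, Slamf8, Slamf9 and Ly9 were higher in spleen, from 1.73-fold for Ly9 to 7.04-fold for Slamf9. The test passed 7.28% of the 13468 genes tested as higher and 12.3% as lower in spleen, and 5 of 8 members as higher and 0 as lower. In the same 5 members every spleen sample was above every BM sample, as was the case for 8.95% of all genes tested. The median log2 fold change was 1.63 over the 8 members and -0.18 over all genes. Fewer cells of a type and less RNA per cell cannot be told apart in these bulk samples. The T, NK, macrophage and erythroid marker sums were also above BM in all 3 spleen samples, and their part in these differences was not tested. p-values treat the 9 samples as independent, although their pools came from shared mice. With the replicate number as a block, Slamf6 and Slamf7 passed and Slamf8, Slamf9 and Ly9 did not (edgeR adjusted p = 0.0556, 0.0892 and 0.0887).

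Slamf6, a homophilic receptor best known from T, B and NK cells, was 8.84, 6.07 and 12.7 CPM in WT BM, 12.0, 13.2 and 21.1 CPM in DNGR-1 KO BM, 71.9 CPM in WT spleen and 54.7 and 80.0 CPM in DNGR-1 KO spleen. The tissues did not overlap, with a wide gap between the highest BM and the lowest spleen sample. Its log2 fold change was 2.48 (standard error 0.34, 95% interval 1.71 to 3.26, adjusted p = 0.0016 by edgeR's quasi-likelihood test). It was the member least dependent on how the data were processed, passing in 20 of 21 alternatives.

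Slamf7, also called CRACC, a receptor of NK cells, plasma cells and activated myeloid cells, was 34.8, 77.7 and 69.8 CPM in WT BM, 41.3, 99.3 and 83.0 CPM in DNGR-1 KO BM, 354 CPM in WT spleen and 296 and 153 CPM in DNGR-1 KO spleen. Within each BM genotype replicate 1 was the lowest, and the highest BM value was below the lowest spleen value. The log2 fold change was 2.0 (standard error 0.37, 95% interval 1.17 to 2.83, edgeR adjusted p = 0.00583).

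Slamf8, whose product is a myeloid protein with a short tail, stood at 14.0, 19.4 and 21.6 CPM in WT BM, 14.5, 49.4 and 33.4 CPM in DNGR-1 KO BM, 79.2 CPM in WT spleen and 161 and 58.8 CPM in DNGR-1 KO spleen. The spread was wide in DNGR-1 KO samples of both tissues, and KO spleen 2 lay close above KO BM 2. The log2 fold change was 1.91 (standard error 0.41, 95% interval 0.99 to 2.84, edgeR adjusted p = 0.0112).

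Slamf9, the other short-tailed member, was 1.73, 2.80 and 2.2 CPM in WT BM, 2.67, 5.20 and 5.06 CPM in DNGR-1 KO BM, 51.3 CPM in WT spleen and 12.7 and 7.77 CPM in DNGR-1 KO spleen. The single WT spleen sample stood far above all others. The log2 fold change was 2.82 (standard error 0.72, 95% interval 1.20 to 4.43, edgeR adjusted p = 0.0234). Without WT spleen 2 it was 1.26 with an adjusted p of 0.196.

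Ly9, also called CD229, a homophilic receptor of lymphocytes, was 60.4, 69.9 and 94.7 CPM in WT BM, 88.3, 124 and 89.5 CPM in DNGR-1 KO BM, 129 CPM in WT spleen and 133 and 210 CPM in DNGR-1 KO spleen. Only a small gap separated the highest BM sample from the lowest spleen sample. The log2 fold change was 0.79 (standard error 0.22, 95% interval 0.29 to 1.3, edgeR adjusted p = 0.0355). Since Cd244a lies across it on the other strand and the strand setting is not stated, part of the reads of either gene could belong to the other.

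The remaining 3 members did not pass the tissue test. Cd48 was 640, 427 and 639 CPM in WT BM, 585, 838 and 1079 CPM in DNGR-1 KO BM, 892 CPM in WT spleen and 505 and 441 CPM in DNGR-1 KO spleen, and the tissues overlapped. Its log2 fold change was -0.18 (95% interval -0.91 to 0.56, edgeR adjusted p = 0.774). Cd84, a homophilic receptor of myeloid and lymphoid cells, was 10.8, 11.1 and 12.6 CPM in WT BM, 17.4, 13.3 and 17.7 CPM in DNGR-1 KO BM, 0.059 CPM in WT spleen and 35.2 and 111 CPM in DNGR-1 KO spleen. It was thus lowest in 1 spleen sample and highest in the other 2, and its log2 fold change of 1.04 carried a 95% interval of -2.11 to 4.19 (edgeR adjusted p = 0.670). Slamf1, also called CD150 and used to mark stem cells, was counted 6, 1 and 11 times in WT BM, 13, 0 and 1 times in DNGR-1 KO BM, 2 times in WT spleen and 37 and 2 times in DNGR-1 KO spleen. It was at or under the floor of 3 counts in 5 of 9 samples, and a tissue difference was not detectable at this depth (log2 fold change 1.35, 95% interval -2.38 to 5.08, edgeR adjusted p = 0.637).

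**Figure D2:**
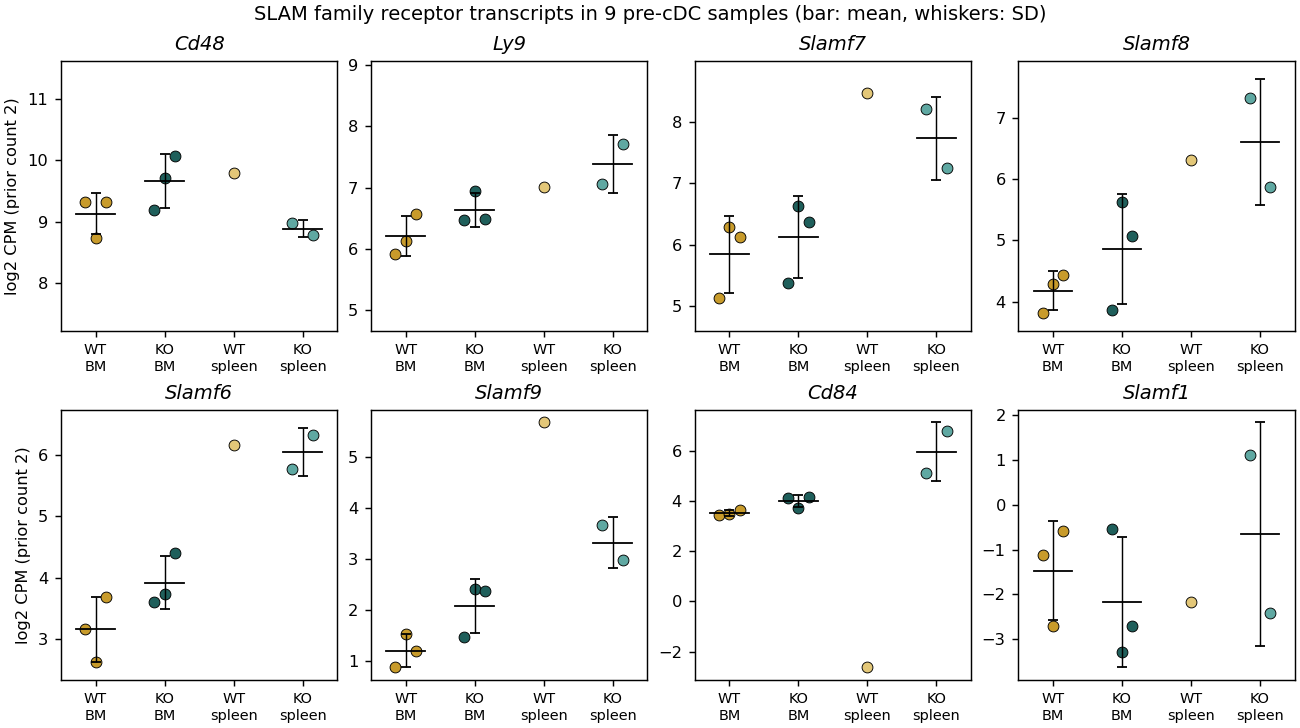
Each panel plots 1 gene as log2 CPM (prior count 2, y axis) in the 4 groups (x axis), a point being a sample, with the mean and SD where a group has more than 1 sample. Slamf6, Slamf7, Slamf8, Slamf9 and Ly9 sit higher in all 3 spleen samples than in all 6 BM samples, and the WT spleen point of Cd84 (0.059 CPM) sits far below the rest of its panel.

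The count of 5 rested on single samples. Without WT spleen 2 there were 2 members past the threshold, Slamf6 and Cd84, the latter with a log2 fold change of 2.2 (edgeR adjusted p = 0.0146), and Slamf7 and Slamf8 had adjusted p-values of 0.0505 and 0.0622. Without WT BM 2 or without KO BM 1 there were 3 (Slamf6, Slamf7 and Slamf8), and in the DNGR-1 KO samples alone there was 1, Slamf6 (log2 fold change 2.14, adjusted p = 0.0327). With the score of the chromosome 1 interval genes as a covariate there were 0 by edgeR, with 5 at an unadjusted p under 0.05. The lowest adjusted p among members was then that of Cd48, at a log2 fold change of -1.26 (0.0622), followed by Slamf6 at 1.84 (0.0895), while Slamf9 dropped to 0.72 (0.753). The standard error of Slamf6 was 0.34 without the score and 0.54 with it. The score was computed over both tissues and can carry tissue differences of the interval genes, such as Ptprc (log2 fold change 2.36). It therefore cannot separate the congenic difference from tissue. With 1 mean for each of the 4 groups, Cd84 turned to a log2 fold change of -2.62 (edgeR adjusted p = 0.00846), which averages the tissue difference in WT with that in DNGR-1 KO.

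The second comparison asked whether loss of DNGR-1 changed the family in spleen, where 1 WT and 2 DNGR-1 KO samples allow values without a test. Of 13618 genes, 16.2% had at least 2 times the WT value in both DNGR-1 KO samples and 9.29% at least 2-fold lower. Cd84 was the 1 member at least 2-fold higher and Slamf9 the 1 member at least 2-fold lower. Cd84 was counted 1 time in WT spleen 2 and 634 and 2637 times in KO spleen 1 and KO spleen 2, that is at least 198-fold and 626-fold higher when the WT sample is set at the floor. Cd84 was among the 509 genes at or under 3 counts in WT spleen 2 that both other spleen samples held at 100 or more. Slamf9 was 0.247 and 0.151 of its WT level in KO spleen 1 and KO spleen 2. Cd48 was 0.567 and 0.494 of its WT level, and Slamf7 0.835 and 0.431. Slamf8 was 2.03 of its WT level in KO spleen 1 and 0.742 in KO spleen 2, Slamf6 0.762 and 1.11, and Ly9 1.03 and 1.63. Slamf1 was at 2 counts in WT spleen and in KO spleen 2 and at 37 in KO spleen 1.

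The 2 DNGR-1 KO spleen samples differed from each other, and the members fell on both sides. KO spleen 2 was 3.16 times KO spleen 1 for Cd84, 1.58 for Ly9 and 1.46 for Slamf6. It was 0.872 times KO spleen 1 for Cd48, 0.613 for Slamf9, 0.517 for Slamf7 and 0.365 for Slamf8. Over the same pair the marker sums stood at 2.77 for T cells, 2.71 for monocytes and macrophages, 1.56 for NK cells, 0.339 for DCs and 0.320 for erythroid cells. The DC sum was made up largely of Cd74 (19967 CPM in KO spleen 1 and 5450 CPM in KO spleen 2) and H2-Aa (7228 and 1645 CPM). Of the 12 DC markers 9 were lower in KO spleen 2 and 3, Sirpa, Ly6c2 and Csf1r, were higher. Among the 9 NK markers 7 were higher in KO spleen 2 and 2, Ncr1 and Klrb1c, were lower. For T cells 11 were higher and 1 lower, and for monocytes and macrophages 8 and 1. The part of these cells in the members' values was not tested.

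The third comparison asked the same of BM, with 3 WT and 3 DNGR-1 KO samples. No member passed the test. Of 13016 genes tested, 4 (0.0307%) passed, and 0 of the 7 members tested, Slamf1 being under the filter on low counts. By edgeR 0 members had an unadjusted p under 0.05, and by DESeq2 0 of 11 genes that passed were members. All 7 had a higher fitted value in DNGR-1 KO than in WT, a direction that 49.6% of all genes had, with a median log2 fold change of 0.55 over the 7 against 0.00 over all genes. Cd84 was the 1 member with every DNGR-1 KO sample above every WT sample, a pattern found in 4.96% of genes.

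The intervals bound what BM could have shown. The log2 fold change of Cd48 was 0.55 (95% interval -0.07 to 1.17), that of Ly9 0.41 (-0.16 to 0.98) and that of Cd84 0.48 (-0.14 to 1.09), each with an edgeR adjusted p of 0.861. For Slamf6 it was 0.74 (-0.09 to 1.57), for Slamf8 0.82 (-0.10 to 1.73) and for Slamf9 0.93 (-0.19 to 2.05), with the same adjusted p by edgeR. Slamf7 had the smallest value, 0.29 (-0.57 to 1.15, edgeR adjusted p = 0.903). A rise of 2-fold (log2 of 1) lay within 6 of the 7 intervals, all but that of Ly9.

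**Figure D3:**
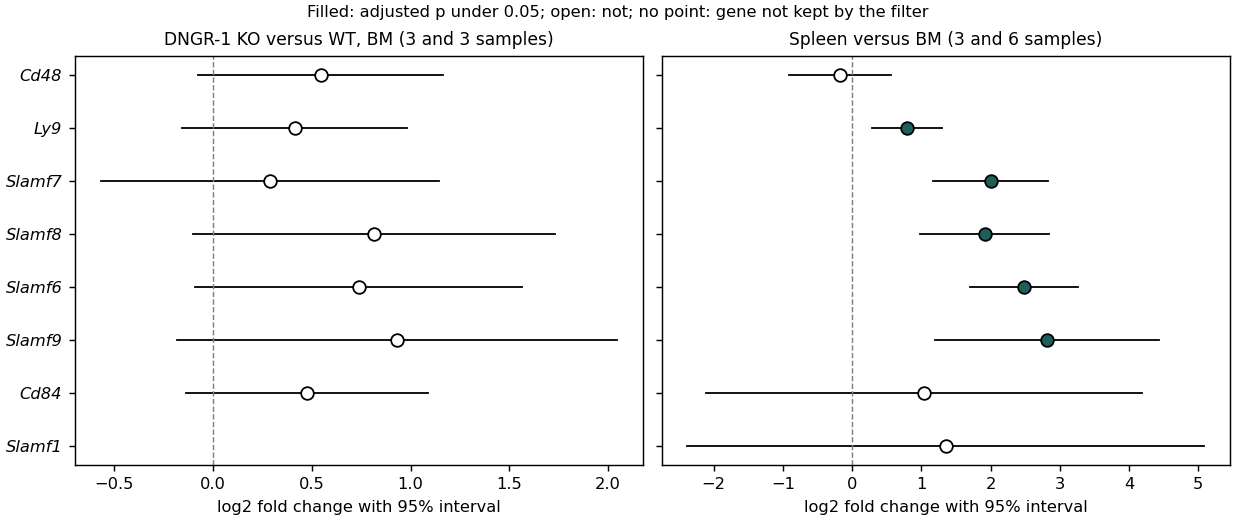
Points are log2 fold changes from edgeR with 95% intervals (x axis) for each SLAM family gene (y axis), DNGR-1 KO versus WT in BM on the left and spleen versus BM on the right, filled where the adjusted p was under 0.05. All 7 points on the left lie above 0 with intervals that reach below it, and 5 points on the right are filled, from 0.79 for Ly9 to 2.82 for Slamf9.

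The genes that receive or transmit SLAM signals were read from a list of 34, of which 31 were tested in BM and 33 between tissues. In BM 0 passed by edgeR or DESeq2, with 2 at an unadjusted p under 0.05 (Cybb and Itgam). Between tissues 10 of 33 passed as higher in spleen and 0 as lower, against 7.28% and 12.3% of all genes tested, with a median log2 fold change of 0.68 over the 33 and -0.18 over all genes. The 10 include Cd2 and Sh2d1a, which fell under the filter on low counts in BM. Both entered through their spleen counts, so they could only come out as higher. Of the 2 receptors that bind CD48, Cd2 was at 0 to 18 counts in BM and at 1320, 2852 and 10251 counts in WT spleen 2, KO spleen 1 and KO spleen 2 (log2 fold change 9.05, standard error 1.05, edgeR adjusted p = 6.41e-04). With BM values this low, the lowest spleen CPM of Cd2 was 83.9 times its highest BM CPM. Its order over the spleen samples was that of the T cell marker sum and of the monocyte and macrophage marker sum, and the part of those cells was not tested. Cd244a, which encodes the other CD48 receptor, was 51.8 to 118 CPM in BM and 80.1 to 249.2 CPM in spleen, and did not pass (edgeR adjusted p = 0.113).

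The SH2 adaptors differed in level. Sh2d1a, which encodes SAP, the adaptor of T and NK cells, had at most 12 counts in any BM sample and 428, 559 and 2869 counts in WT spleen 2, KO spleen 1 and KO spleen 2 (log2 fold change 9.07, standard error 1.10, edgeR adjusted p = 7.86e-04). Its lowest spleen CPM was 42.2 times its highest BM CPM. As for Cd2, its order over the spleen samples was that of the T cell and of the monocyte and macrophage marker sums. The part of those cells was not tested. Sh2d1b1, which encodes EAT-2, was present in every sample, at 8.71 to 22.2 CPM in BM and 15.2 to 37.1 CPM in spleen, and did not pass (log2 fold change 0.96, 95% interval 0.01 to 1.91, edgeR adjusted p = 0.146). Sh2d1b2, its close copy, had 0 or 1 count in each sample. Reads shared by such near-identical copies could have been divided between them, so these values are uncertain. EAT-2 was thus the adaptor transcript found in BM pre-cDCs, whereas that of SAP was near the floor there.

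Of the 13 kinases and exchange or adaptor proteins 3 were higher in spleen and 0 lower. Fgr, a Src-family kinase of myeloid cells, had a log2 fold change of 1.73 (edgeR adjusted p = 0.00326), Prkcq, the T cell kinase PKC-theta, 4.85 (0.0135) and Fyn, the kinase that SAP recruits, 1.43 (0.0254). In WT spleen 2, KO spleen 1 and KO spleen 2, Prkcq was 7.0, 77.3 and 178 CPM and Fyn 33.4, 65.9 and 140 CPM. That is the order of the T cell and of the monocyte and macrophage marker sums, and the part of those cells was not tested. Fgr ran the other way, at 278, 165 and 112 CPM. Of 4 phosphatases Ptprc, which encodes CD45, was higher (2.36, edgeR adjusted p = 2.92e-04), and it lies in the chromosome 1 interval that differs between the donors. Of 4 genes of the complex that SLAMF1 joins on phagosomes Pik3r4 was higher (1.70, adjusted p = 0.0299), of 6 NADPH oxidase genes Cybb (2.35, 0.00992) and Ncf4 (1.03, 0.0369), and of the 2 chains of the integrin that SLAMF7 pairs with Itgb2 (1.51, 0.00968), again by edgeR. In the DNGR-1 KO samples alone 5 of the list passed: Cd2, Sh2d1a, Fyn, Prkcq and Ptprc.

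**Figure D4:**
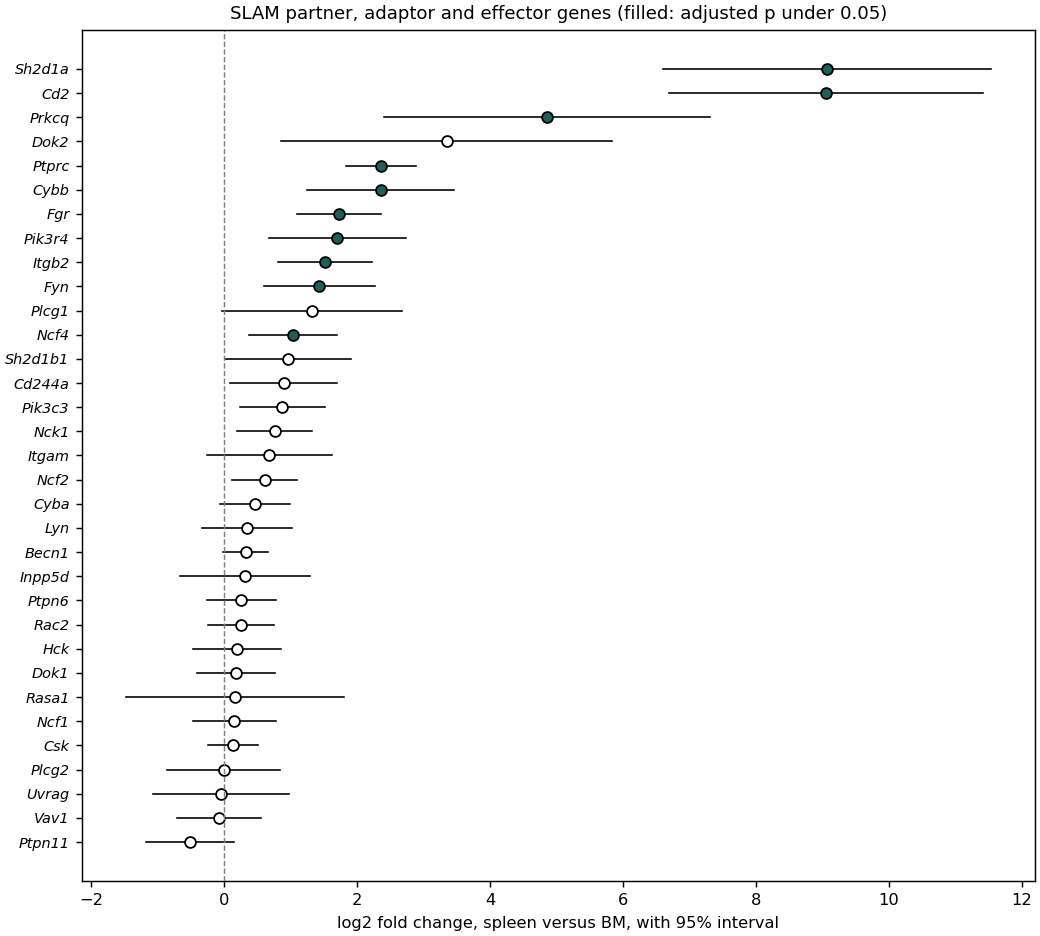
Log2 fold changes between spleen and BM with 95% intervals (x axis) are shown for the 33 tested partner, adaptor and effector genes (y axis), filled where the edgeR adjusted p was under 0.05. The 10 filled genes all lie to the right of 0, with Sh2d1a at 9.07 and Cd2 at 9.05 far beyond the rest. These last 2 had at most 12 and 18 counts in any BM sample.

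Genes around the members were read next. Within 200 kb of the 8 genes lay 53 others, of which 25 were tested between tissues, with 2 higher and 3 lower in spleen by edgeR, shares near the 7.28% and 12.3% of all genes. Cfap45 had a log2 fold change of 4.88 (edgeR adjusted p = 0.00292) and Gm37787, which overlaps Slamf7 on the other strand, 3.34 (0.0474). At 2 to 35 counts in BM, Cfap45 was kept by the filter through its spleen counts, so it could only come out as higher. Igsf8 fell by 1.53 (0.00154), Pex19 fell by 0.98 (0.0296), and Gm37145, at 0 counts in all 3 spleen samples, also passed as lower (0.0146). At 6 to 30 counts in BM, Gm37145 was kept by the filter through its BM counts, so it could only come out as lower. In BM 0 of 23 neighbours tested passed by edgeR, and 0 had an unadjusted p under 0.05.

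Across the 9 samples, Slamf6, Slamf7, Slamf8, Slamf9 and Ly9 had log2 CPM values that ran together, while Cd48, Cd84 and Slamf1 ran apart from them. Pearson's r was 0.94 between Slamf7 and Slamf8 and 0.93 between Slamf7 and Slamf9, and it ran from 0.63 to 0.94 over the 10 pairs of the 5 genes. With Cd84 it was -0.55 for Slamf9 and 0.16 for Ly9. These coefficients describe 9 samples that share the step between tissues. The 2 genes with the most similar pattern, over 9 samples of log2 CPM, were Treml4 (r = 0.98) and Xcr1 (0.98) for Slamf7, Hepacam2 (0.98) and Cysltr1 (0.97) for Slamf8, and Gpr137b (0.98) and Mndal (0.98) for Slamf9. For Slamf6 they were Ifi206 (0.996) and Klrk1 (0.99), for Ly9 Smarca2 (0.98) and Sash3 (0.98), and for Cd48 Fuca2 (0.96) and Reep5 (0.95). Those of Cd84, Kif1b (0.99) and Pogk (0.99), were likewise at 0 CPM in WT spleen 2 and at 14.9 and 33.0 CPM for Kif1b and 14.2 and 48.0 CPM for Pogk in KO spleen 1 and KO spleen 2. Those of Slamf1, Hgfac (0.96) and Zbtb16 (0.94), rested on KO spleen 1, the 1 sample with more than 13 counts of Slamf1. Xcr1, the chemokine receptor that marks cDC1s, was 0.995 to 9.62 CPM in BM and 104.8, 173 and 38.2 CPM in WT spleen 2, KO spleen 1 and KO spleen 2, the same order of tissues as Slamf7.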

How the data were processed

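Bulk RNA-seq of 9 pre-cDC samples from mixed BM chimeras was analysed, grouped by the genotype and tissue of their labels, with the digit of each title as replicate number. Libraries were made from ribosome-depleted total RNA and sequenced with DNBSEQ. The submitters' processing notes name Trimmomatic 0.36, STAR 2.5.2, RSEM 1.3.0, DESeq2 1.18.1, R 3.4.3 and GRCm38. The authors deposited expected counts per gene, not normalized, of which 25.6% of nonzero values are not whole, and log2-scale values after a variance stabilizing transformation (VST) for 20810 genes, with a floor of 8.43. The design assumed counts, so the expected counts were rounded. RSEM divides reads that fit several genes, so genes with close copies carry added uncertainty.

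GENCODE M21 gave a symbol for 51719 of 51912 identifiers. Groups were compared in R 4.3.3 with edgeR 4.0.16 (TMM, filterByExpr, quasi-likelihood test, Benjamini-Hochberg adjustment over all genes tested, threshold 0.05): BM genotypes over 6 samples, and tissues over 9 with genotype as covariate. Standard errors came from the F statistic. WT spleen had 1 sample, so spleen genotypes were not tested. Log2 CPM used a prior count of 2, 3 counts served as floor, and levels per kb used the union of exons. Depth was 17103806 to 23722298 counts. Replicates differed beyond sampling noise, with a chi-square of 28.9 to 257 per gene, and each counted as 1 sample. The fits were also run on simulated counts with known changes. Those counts were drawn independently for each sample, so shared mice and RNA of other cells were not modelled.

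Alternatives were DESeq2 1.42.0, limma 3.58.1 (voom, and on VST values), no TMM, 2 other filters, the replicate number as a block, the interval genes left out or scored, 1 fit of 4 groups, no genotype term, DNGR-1 KO samples alone, other prior counts, the longest transcript, and each sample left out. The members and gene lists were chosen with earlier results of these data known. Named genes were the members, Clec9a, both CD48 receptors, the SH2D1 adaptors, at most 4 passing genes for each role of the partner list, passing neighbours, and the 2 genes most correlated with each member. Protein sequences were not used here.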

Additional observations from a re-analysis of the deposited data

Results flagged for a closer look

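For 3 members the 2 genotypes, or the 2 tissues, moved in opposite directions, every sample being compared with the mean of the group it is set against. None of these differences was tested, because WT spleen had 1 sample.

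Cd48 had a mean of 569 CPM in WT BM and 834 CPM in DNGR-1 KO BM, while in spleen it had 892 CPM in WT and a mean of 473 CPM in DNGR-1 KO. Read by tissue, the same values rose from BM to spleen in WT and fell in DNGR-1 KO. Cd84 had a mean of 11.5 CPM in WT BM and 0.059 CPM in WT spleen, against a mean of 16.1 CPM in DNGR-1 KO BM and 73.3 CPM in DNGR-1 KO spleen. Slamf9 had a mean of 2.24 CPM in WT BM and 4.31 CPM in DNGR-1 KO BM, and 51.3 CPM in WT spleen and a mean of 10.2 CPM in DNGR-1 KO spleen. All 3 patterns rest on WT spleen 2, the sample with 6.07% of genes at or under 3 counts that were at 100 or more in both other spleen samples.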

How the results depend on the processing

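In BM, all 112 values of single members under the alternatives kept their direction and stayed short of the threshold. In spleen 37 of 40 kept their direction, and without KO spleen 1 Slamf1 (-0.24), Slamf6 (0.16) and Slamf8 (-0.43) changed it. Between tissues 133 of 164 did so, 26 lost the call, 1 gained it and 4 changed direction: Slamf1 without KO spleen 1 (log2 fold change -1.32), Cd48 without KO spleen 2 (0.06) and Cd84 without KO spleen 2 (-0.40) or with 1 mean for each of 4 groups (-2.62). Slamf7 passed in 18, Slamf8 in 17, Slamf9 in 13 and Ly9 in 11 of 21 alternatives. Slamf9 lost its call without any of WT BM 1, WT BM 2, WT BM 3, KO BM 1 or WT spleen 2, at adjusted p of 0.0566, 0.0668, 0.0686, 0.0538 and 0.196 by edgeR. Ly9 lost it without any of WT BM 2, KO BM 1, KO BM 3, WT spleen 2 or KO spleen 2, at 0.0695, 0.0871, 0.0764, 0.114 and 0.101, and also without TMM (0.0609) or without the filter (0.0598). Without WT spleen 2 the values of Slamf1, Cd48 and Cd84 were 2.3, -0.80 and 2.2, and the lowest and highest with a sample left out were -1.32 to 2.3, -0.80 to 0.06 and -0.40 to 2.2. The cause was not tested.

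The members called between tissues numbered 0 with the interval score as covariate and 1 in DNGR-1 KO samples alone, and 2 to 5 with a sample left out. Partner genes (10) became 16 with DESeq2, 3 with the score, 5 in DNGR-1 KO samples alone and 7 to 13 with a sample left out. Over all genes 2631 became 821 with the score, 4789 with 4 groups, 1336 in DNGR-1 KO samples alone and 1848 to 3187 with a sample left out. In BM the 4 genes called became 11 with DESeq2, 10 without the filter, 1 without the interval genes, and 2 to 15 with a sample left out, 15 being without KO BM 1. Members higher in both DNGR-1 KO spleen samples (2) became 1 without TMM. With 1 DNGR-1 KO spleen sample left out they became 3 to 4, a count that could not fall, since only 1 sample then had to be higher. The median log2 fold change of all genes between tissues was -0.18, and -0.25 without TMM, -0.12 with DESeq2, -0.35 with voom, -0.42 with 4 groups, -0.57 without the filter and 0.008 with at least 10 counts in every sample. Members at the same rank per kb numbered 4 in DNGR-1 KO BM and 4 in DNGR-1 KO spleen with the longest transcript.

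With the replicate number as a block, 2 members (Slamf6 and Slamf7), 5 partner genes and 1246 genes in all were called between tissues, and no call changed in BM members. Deviations from the group means correlated, between BM samples that carry 1 number, at 0.09, 0.07 and -0.06, and not every sample correlated best with its own number. Marker lists of other cells differed in this. The neutrophil markers S100a8, S100a9, Camp, Ngp, Elane and Mpo each kept 1 order over replicates 1 to 3 in both BM genotypes. Ly6g was tied at 0 in KO BM 2 and KO BM 3. No erythroid marker kept 1 order. The neutrophil marker S100a8 was 179, 11.8 and 42.5 CPM in WT BM 1 to 3 and 149, 14.4 and 41.0 CPM in KO BM 1 to 3. S100a9 was 142, 11.5 and 40.5 CPM and 129, 13.2 and 43.3 CPM. The erythroid Hba-a1 did not keep 1 order, at 86.5, 11.7 and 29.6 CPM and 67.1, 32.0 and 86.5 CPM. The samples came from shared mice, but whether a shared number marks the same mice is not stated and was not tested. Depth limits Slamf1, which was at or under the floor in 5 of 9 samples.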
